A study of Homo sapiens with 33 samples.

Results

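Cells of the triple-negative breast cancer line labelled MDA-MD-231, with the genotype given as WT and the tissue as breast, were treated with the agent labelled SY200 for 3, 6 or 12 h. They were set against a DMSO library and an untreated parental library of the same line, both taken here as time 0. These 5 libraries, 3 with SY200 and 2 controls, are 5 of the 33 in the series and were chosen by their line, agent and time labels. The series as a whole asked what inhibitors of CDK7, of CDK9, or of both do to gene expression in MDA-MD-231 and MDA-MD-468. Its labels do not say which of these kinases SY200 or the second agent, V50, acts on, nor what the number in a name counts. RNA was read with a 3' tag method (QuantSeq 3' mRNA FWD), which reads tags near the poly(A) end of each transcript, so a level is a share of tags and does not grow with transcript length. Each time has 1 library and separate cultures are not stated, so p-values measure only the spread between these libraries. In bulk RNA, fewer cells of a type and less RNA per cell cannot be told apart.

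CDK7 is the kinase of TFIIH, which phosphorylates the tail of RNA polymerase II at the start of a gene and activates the cell cycle CDKs. CDK9, with a cyclin T, forms P-TEFb, which releases the polymerase from its pause just past the promoter. When such kinases are blocked, transcripts with short half-lives, such as those of feedback inhibitors and many transcription factors, are generally lost first. POLR2A encodes the large subunit of RNA polymerase II, and cyclin B1 (CCNB1) and Aurora A (AURKA) drive entry into mitosis.

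The promoters below are those of the G2 and mitosis genes described later and of ANKRD1. Each is 300 bases, 250 before to 50 after the gene's start, from RefSeq on GRCh38.p14. The first 4 belong to the members of the G2 and mitosis list with the smallest unadjusted p that have an entry: cyclin B1 (CCNB1, chr5:69166900-69167199, plus strand), the centromere motor CENPE (chr4:103198294-103198593, minus strand), cyclin B2 (CCNB2, chr15:59104896-59105195, plus strand) and the centromeric histone CENPA (chr2:26785806-26786105, plus strand). Capitals mark CCAAT, the box bound by NF-Y, and TTTGAA, the cell cycle homology region bound by the DREAM complex, on either strand. The last is ANKRD1 (chr10:90921038-90921337, minus strand), with capitals for CATTCC, the motif of TEAD factors, on either strand. CCNB1 held 2 CCAAT and no TTTGAA, CENPE neither, CCNB2 4 CCAAT and 1 TTTGAA, and CENPA 2 CCAAT and 1 TTTGAA. ANKRD1 held 2 CATTCC, starting 220 and 128 bases before its RefSeq start. In GENCODE release 29 ANKRD1 starts at 90921276, which is upstream of the RefSeq start and inside the printed stretch. The motifs do not overlap each other. CATTCC is in 10.6% of the promoters of genes with at least 10 CPM and in 14% of all promoters. AURKA and TTK are named only.
CCNB1: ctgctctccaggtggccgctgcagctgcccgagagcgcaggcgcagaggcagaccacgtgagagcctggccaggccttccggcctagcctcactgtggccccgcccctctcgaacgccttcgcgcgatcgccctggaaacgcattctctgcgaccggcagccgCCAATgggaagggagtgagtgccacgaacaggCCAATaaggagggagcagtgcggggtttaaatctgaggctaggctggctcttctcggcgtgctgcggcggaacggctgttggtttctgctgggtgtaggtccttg
CENPE: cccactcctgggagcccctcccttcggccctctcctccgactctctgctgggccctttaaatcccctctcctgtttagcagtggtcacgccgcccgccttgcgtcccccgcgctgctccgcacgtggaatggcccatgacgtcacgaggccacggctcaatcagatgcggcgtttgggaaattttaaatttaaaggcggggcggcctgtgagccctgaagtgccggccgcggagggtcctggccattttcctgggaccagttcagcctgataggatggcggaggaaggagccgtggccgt
CCNB2: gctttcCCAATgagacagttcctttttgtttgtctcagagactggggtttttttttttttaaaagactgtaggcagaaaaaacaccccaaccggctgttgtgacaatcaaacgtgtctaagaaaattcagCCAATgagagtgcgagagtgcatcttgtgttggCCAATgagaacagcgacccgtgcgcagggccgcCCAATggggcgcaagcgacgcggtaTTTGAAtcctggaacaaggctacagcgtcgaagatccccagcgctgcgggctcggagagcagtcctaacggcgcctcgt
CENPA: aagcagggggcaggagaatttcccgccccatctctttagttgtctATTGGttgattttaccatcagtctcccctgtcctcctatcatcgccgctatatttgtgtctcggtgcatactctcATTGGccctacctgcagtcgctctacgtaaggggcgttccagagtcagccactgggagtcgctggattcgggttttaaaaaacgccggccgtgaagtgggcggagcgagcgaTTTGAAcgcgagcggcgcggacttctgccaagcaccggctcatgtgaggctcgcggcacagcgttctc
ANKRD1: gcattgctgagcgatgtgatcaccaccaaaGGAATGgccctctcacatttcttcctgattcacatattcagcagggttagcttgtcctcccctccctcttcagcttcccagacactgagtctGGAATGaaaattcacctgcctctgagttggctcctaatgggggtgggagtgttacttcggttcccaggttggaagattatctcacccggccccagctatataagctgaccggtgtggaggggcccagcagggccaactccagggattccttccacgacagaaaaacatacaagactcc

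The 5 libraries held 17932063 to 22859779 counted reads. They carried most markers of their labelled line: the 14 MDA-MD-231 markers had a median of 493, 355 and 290.5 CPM (a gene's counts scaled to a library of fixed size) with SY200 at 3, 6 and 12 h, against 372 and 571 CPM in DMSO and parental. In each library 1 of the 14 was under 1 CPM. The 19 MDA-MD-468 markers had a median of 0.274, 0.223 and 0.0977 CPM with SY200, against 0.316 and 0.219 CPM in the controls. Their sums ran from 808 to 1423 CPM, so some were expressed. Of 10 immune markers, some had no count in any of the 5 libraries, among them CD3E, MS4A1 and NKG7. PTPRC, CD14, LYZ and CD68 had counts in all 5, at up to 1.42, 1.12, 1.23 and 0.39 CPM. HLA-DRA reached 26.6 CPM. Mitochondrially encoded mRNAs took 2.42%, 2.91% and 2.65% of reads with SY200 at 3, 6 and 12 h, against 2.51% and 2.17% in DMSO and parental. The controls differed from each other by more than counting noise (chi-square per degree of freedom 40.1). Over the 9506 genes with a mean of at least 10 CPM, the root mean square distance in log2 CPM was 0.20 between SY200 at 6 and 12 h, and 0.42 between parental and DMSO. The 3 h library lay nearest to parental (0.43, against 0.55 to DMSO). The 6 and 12 h libraries lay nearer to DMSO (0.43 and 0.42) than to parental (0.54 and 0.58). The 3 h library stood apart from 6 and 12 h (0.56 and 0.65).

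In MDA-MD-231 many genes were low after 3 h of SY200 and near the controls again at 6 or 12 h, and other genes were high or low at 6 and 12 h. A gene was counted as past 2-fold at a time when its level was more than 2-fold above the higher or below the lower of the controls. At 3 h, 243 genes were lower (2.56% of the 9506) and 10 were higher (0.105%). At 6 h, 94 were higher (0.989%) and 73 lower (0.768%), and at 12 h, 99 were higher (1.04%) and 82 lower (0.863%). These counts are of single libraries and have no test. Scaled to the 13 mitochondrial mRNAs, 32 genes were higher and 318 lower at 6 h, and 57 and 155 at 12 h. Against DMSO alone, 152 were higher at 3 h, which was still fewer than the genes that were lower. For scale, the parental library was past 2-fold of DMSO at 137 genes higher (1.44%) and 122 lower (1.28%). That count is against DMSO alone, which is easier to pass than both controls, so the sizes are not like for like.

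**Figure D1:**
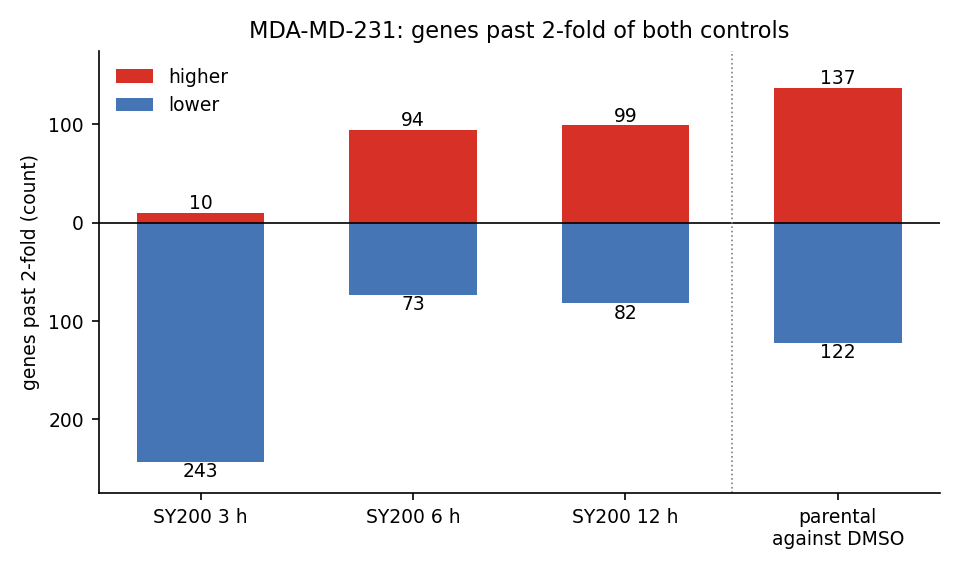
Bars give the number of genes more than 2-fold above (up) or below (down) both controls in each SY200 library. The genes are the 9506 with a mean of at least 10 CPM. On the right are those of parental against DMSO alone, a condition that is easier to meet. The 3 h library has 243 genes below the controls and 10 above, whereas at 6 and 12 h the directions are of similar size. Under mitochondrial scaling the counts were 32 above and 318 below at 6 h and 57 above and 155 below at 12 h. Set against DMSO alone, 152 were above at 3 h, still fewer than those below.

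The test of all 3 SY200 libraries against both controls called no gene. Of 15745 genes tested with edgeR's quasi-likelihood test, 0 had a Benjamini-Hochberg (BH) adjusted p under 0.05 (0%), while 1240 had an unadjusted p under 0.05, 624 of them higher and 616 lower. DESeq2 with the same design called 65 higher (0.413%) and 48 lower (0.305%). Leaving out the 3 h library, so that 6 and 12 h stood against both controls, edgeR called 707 of 15507 genes: 454 higher (2.93%) and 253 lower (1.63%). Leaving out 6 h, 12 h, DMSO or parental instead, it called 0. "Rose" and "fell" below refer to the fit of 6 and 12 h. That fit was not planned and was added after the data were seen. It treats the different times 6 and 12 h as replicates of SY200. The fit of 6 and 12 h rests on 4 libraries, and without 1 of them its count ran between 86 and 5051.

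CDK1, CDK7 and CDK9 are the genes that the knockout libraries of the series target. CDK1, the mitotic kinase, had 189, 201 and 191 CPM with SY200 at 3, 6 and 12 h, against 193 and 238 CPM in DMSO and parental, so the groups overlapped. CDK7 had 36.2, 36.5 and 39.7 CPM with SY200, against 62.8 and 52.5 CPM in the controls, below both controls at each time (edgeR over 5 libraries, log2 fold change -0.62 ± 0.18 (SE), adjusted p = 0.54). CDK9 had 43.1, 53.8 and 67.6 CPM with SY200, against 54.6 and 66.2 CPM in the controls, and its groups overlapped. None of these transcripts passed a test, and their levels say nothing of kinase activity.

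Genes on one side of both controls at each time are described next. Of the 9506 genes, 1131 (11.9%) were above both controls in all 3 SY200 libraries and 1173 (12.3%) below. The genes with the smallest unadjusted p on each side were taken, 12 higher and 10 lower, a choice made after the values were seen. ANKRD1, a cardiac ankyrin repeat protein and YAP target (chr10:90912096-90921276 on the minus strand of GRCh38), had 378, 350.5 and 298 CPM with SY200 at 3, 6 and 12 h, against 1182 and 981 CPM in DMSO and parental. Every SY200 library was far below both controls, and no other gene on the low side with a mean of at least 10 CPM had a smaller unadjusted p. Over 5 libraries its log2 fold change was -1.66 ± 0.15 (SE) with an adjusted p of 0.076 (edgeR), and it fell in the fit of 6 and 12 h (edgeR, log2 fold change -1.74 ± 0.15 (SE), adjusted p = 0.006). TOB1, an antiproliferative protein that recruits the deadenylase complex (chr17:50862223-50867978 on the minus strand of GRCh38), had 90.9, 112 and 127 CPM with SY200, against 27.5 and 24.1 CPM in the controls. TOB1 was above both controls at each time and rose at 6 and 12 h (edgeR, log2 fold change 2.21 ± 0.16 (SE), adjusted p = 0.0053), with an adjusted p of 0.11 over 5 libraries.

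POLR2A (chr17:7484366-7514616 on the plus strand of GRCh38) had 779, 1559.7 and 1563 CPM with SY200 at 3, 6 and 12 h, against 428 and 264 CPM in DMSO and parental. It was higher at 6 and 12 h than at 3 h and rose (edgeR, log2 fold change 2.17 ± 0.22 (SE), adjusted p = 0.0078). TNFRSF10D, a decoy receptor for TRAIL, had 132, 276 and 229.8 CPM with SY200, against 43 and 55.4 CPM in the controls, and rose likewise (edgeR, log2 fold change 2.36 ± 0.18 (SE), adjusted p = 0.0053). JUNB, an AP-1 subunit, had 136, 165 and 147 CPM with SY200, against 64.4 and 43.2 CPM in the controls. MYLIP, a ubiquitin ligase, had 63, 56.5 and 48.2 CPM with SY200, against 22.7 and 18 CPM in the controls. All these groups were separate, and both genes rose (adjusted p = 0.013 for JUNB and 0.016 for MYLIP, edgeR at 6 and 12 h). ID4, an inhibitor of basic helix-loop-helix factors, had 21.9, 23.7 and 21.2 CPM with SY200, against 7.59 and 2.96 CPM in the controls. TENT5C, a poly(A) polymerase, had 105, 211 and 202 CPM with SY200, against 61.9 and 53.2 CPM in the controls. ID4 and TENT5C were above both controls at each time and rose as well. SPTAN1 (spectrin), ZKSCAN2, FAM53C, RHOB (a small GTPase) and HERPUD1 (an endoplasmic reticulum stress protein) also rose, with log2 fold changes of 0.72, 1.65, 1.32, 1.49 and 1.36.

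Below the controls throughout, SOX9, a progenitor transcription factor, had 23.4, 41.1 and 47.1 CPM with SY200 at 3, 6 and 12 h, against 133 and 168 CPM in DMSO and parental. It was lowest at 3 h and fell at 6 and 12 h (edgeR, log2 fold change -1.77 ± 0.17 (SE), adjusted p = 0.0072). NR2F2, a nuclear receptor, had 96.7, 103 and 118 CPM with SY200, against 238 and 310.1 CPM in the controls. EIF4A2, a translation initiation helicase whose introns hold snoRNAs, had 301, 249 and 251 CPM with SY200, against 541 and 578 CPM in the controls. Neither overlapped its controls, and both fell (adjusted p = 0.013 and 0.0095). The G2 ubiquitin ligase G2E3, RGS4 (a regulator of G protein signalling), GAS5, RABGGTB, SNHG12 and KRTAP2-3 fell by 1.08, 1.35, 1.29, 1.58, 1.25 and 1.98 on the log2 scale. Past 2-fold at all 3 times were 8 genes on the low side (ANKRD1, IRF2, KRTAP2-3, NR2F2, RGS4, SNHG12, SOX9 and SPRY1) and 6 on the high side (ID4, JUNB, MYLIP, TNFRSF10D, TOB1 and ZKSCAN2).

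**Figure D2:**
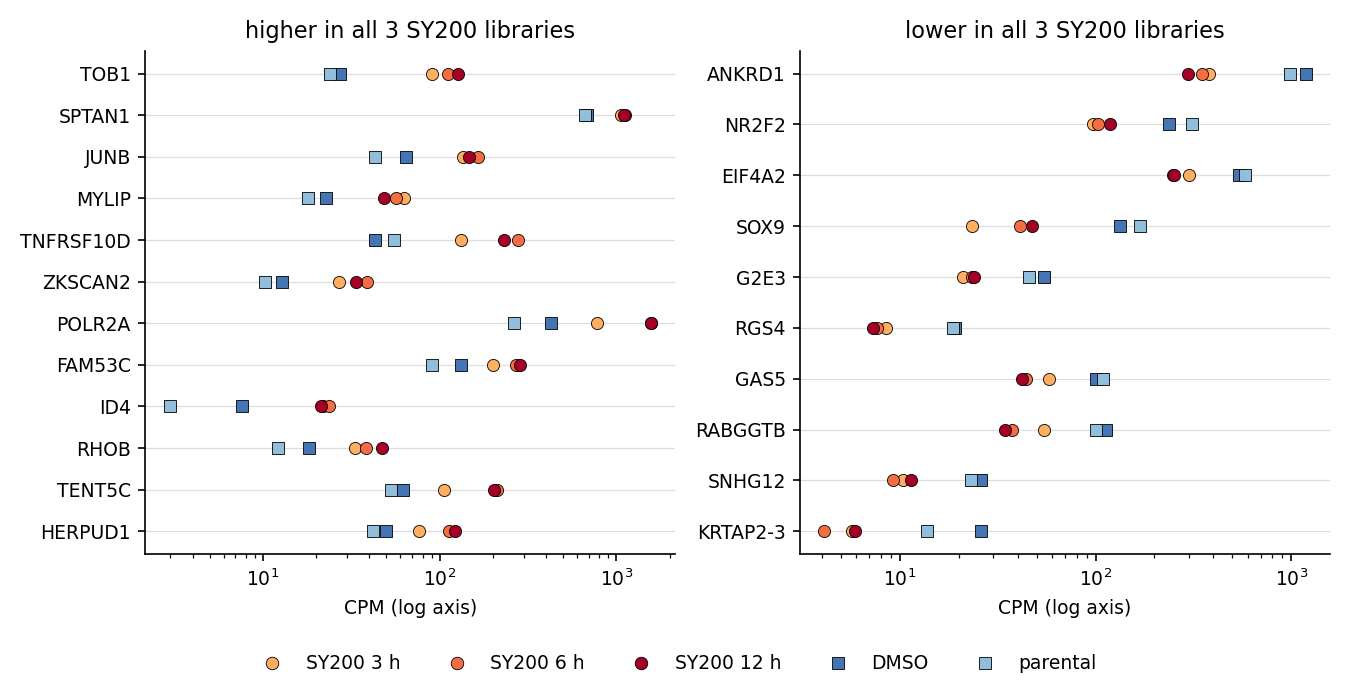
Each row is a gene and each point 1 library, with CPM on a log axis: circles are SY200 at 3, 6 and 12 h and squares are DMSO and parental. The 12 genes on the left have all circles right of both squares and the 10 on the right have them all left, by the rule that chose them. ANKRD1 has 298 to 378 CPM with SY200, against 981 and 1182 CPM in the controls.

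Of the genes low at 3 h, the 12 furthest below the lower of the controls were taken, a choice made after the values were seen. SPRY1, a feedback inhibitor of ERK signalling, had 3.06, 8.73 and 7.01 CPM with SY200 at 3, 6 and 12 h, against 19.4 and 30.9 CPM in DMSO and parental. IRF2BP2, a transcriptional corepressor with 2 exons (chr1:234604269-234609525 on the minus strand of GRCh38), had 15.4, 37.1 and 44.9 CPM with SY200, against 88.3 and 87.4 CPM in the controls. MARS2, the single-exon mitochondrial methionyl-tRNA synthetase (chr2:197705369-197708387 on the plus strand of GRCh38), had 3.87, 18.6 and 20.8 CPM with SY200, against 22.5 and 20.6 CPM in the controls. SPRY1 and IRF2BP2 stayed below both controls and fell at 6 and 12 h, whereas MARS2 came back to the control range at 12 h.

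KLF6, a zinc finger transcription factor, had 33.8, 122 and 123 CPM with SY200 at 3, 6 and 12 h, against 161 and 207 CPM in DMSO and parental. PHF13, a chromatin reader, had 5.56, 41.1 and 35.8 CPM with SY200, against 27.2 and 35.5 CPM in the controls. NABP1, a single-stranded DNA binding protein, had 15.9, 59.3 and 68 CPM with SY200, against 77.6 and 71.8 CPM in the controls. KLF6 and NABP1 were still below the lower control at 12 h, by less than 2-fold, while PHF13 was above both. PHF23, ZNF114, ARID4A, PDP2 and SERTAD3 were 2.14 to 2.66 log2 units below the mean of the controls at 3 h. Of these, ZNF114 fell at 6 and 12 h (edgeR, log2 fold change -1.17 ± 0.24 (SE), adjusted p = 0.041) and the other 4 did not pass.

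MCL1, a short-lived survival protein of the BCL2 family, had 249, 612 and 546 CPM with SY200 at 3, 6 and 12 h, against 532 and 473 CPM in DMSO and parental. MYC, a growth transcription factor, had 53.3, 122 and 108 CPM with SY200, against 166 and 147 CPM in the controls. Both transcripts were lowest at 3 h. MYC was past 2-fold at 3 h and MCL1 was not, and neither passed at 6 and 12 h. These 2 genes were chosen after their values were seen.

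Of the 243 genes that were low at 3 h, 13 were still past 2-fold at 6 h and 8 at 12 h, the same 8 being past it at both. At 6 h 110 were no longer below both controls, and at 12 h 156 were not. Above both controls at 12 h were 113. Over all 9506 genes, 0.768% were past 2-fold low at 6 h and 0.863% at 12 h. The other counts were not made over all 9506 genes, so they have no background beside them. The median difference of the 243 genes from the controls was -1.35, -0.17 and 0.11 on the log2 scale at 3, 6 and 12 h. The median of all 9506 genes was 0.003, 0.018 and 0.024. The first of these values is set by the rule that chose them. The later ones are from SY200 libraries that the rule did not use, but they are set against the same controls. At the edge of the threshold, ZBTB10 stood at -1.0003 log2 units from the lower control and counted, and EXOC8 stood at -0.999 and did not. Of the 10 genes that were high at 3 h, 8 were still past 2-fold at 6 h and 6 at 12 h. Those 10 include EGR1, an immediate-early factor, with 288, 189.5 and 145 CPM with SY200, against 131 and 12.6 CPM in the controls, whose controls were far apart. They also include PCF11, a 3' end processing factor, with 102, 93 and 59.7 CPM with SY200, against 49.5 and 42 CPM in the controls.

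**Figure D3:**
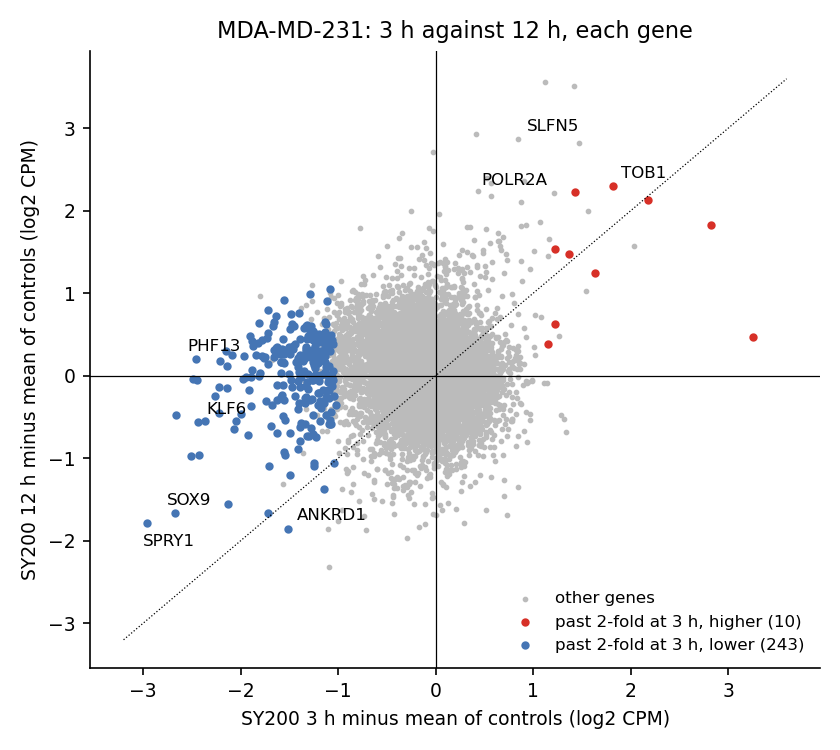
Each point is 1 of 9506 genes. The x axis is SY200 at 3 h and the y axis SY200 at 12 h, each minus the mean of the same 2 controls, in log2 CPM. The 243 genes low at 3 h (blue) form a band around 0 at 12 h, with SOX9, SPRY1 and ANKRD1 among the few that stay low, and 6 of the 10 high at 3 h (red) are still past 2-fold at 12 h.

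As a group, the 243 genes low at 3 h were short and had few exons, which is a description with no test. Positions from GENCODE release 29 were found for 238 of the 243. Their median genomic span was 18083 bp, against 33875 bp over all genes with a mean of at least 10 CPM. The largest exon number of any transcript had a median of 5, against 10, and 49.6% had at most 4 exons, against 15.2%. Genes with ZNF, ZKSCAN, ZSCAN or ZBTB symbols, a group of zinc finger proteins that are mostly DNA-binding regulators, made up 16.5% of the 243, against 3.02% of all. Their control level was also lower, with a median of 26.6 CPM, against 49.1 CPM over all, and its part in the count was not tested. At 12 h, 34.4% of the 99 high genes and 19.5% of the 82 low genes had at most 4 exons.

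The zinc finger group itself had 287 members with at least 10 CPM. Its median difference was -0.50, 0.31 and 0.35 at 3, 6 and 12 h, and 40 members (13.9%) were past 2-fold low at 3 h, against 2.56% of all genes. At 6 and 12 h, 32 of the 287 rose (11.1%) and 5 fell (1.74%), against 3.23% and 2.24% of all genes with at least 10 CPM, and the parental median was 0.23 below DMSO. Under mitochondrial scaling the 6 h median was -0.06, where all genes had -0.35. ZKSCAN2, a member, was past 2-fold high at 3 h (27.1, 38.9 and 33.7 CPM with SY200, against 12.8 and 10.3 CPM in the controls).

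The same genes in MDA-MD-468 are given side by side, with no test. That line had SY200 at 3, 6 and 12 h and its own DMSO and parental libraries. Of the 243 genes low at 3 h, 203 had at least 10 CPM there, and 52 of them (25.6%) were past 2-fold low at 3 h, against 1.52% of 9887 genes. Their median in MDA-MD-468 was -0.85 on the log2 scale, against -0.05 for all. Of the genes low at 6 h, 3 of 50 (6%) were past 2-fold low there at 6 h, against 0.425% of all. Of the genes low at 12 h, 18 of 62 (29%) were past 2-fold low there at 12 h, against 1.87% of all. Of the genes high at 3 h, 1 of 7 (14.3%) was past 2-fold high there, against 0.273% of all. Of the genes high at 6 h, 0 of 76 were past 2-fold there, against 0.253% of all. Of those high at 12 h, 6 of 79 were (7.59%), against 0.496%.

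Among genes that passed the fit of 6 and 12 h with at least 10 CPM, the 12 largest changes in each direction are named, chosen after the values were seen. SLFN5, an interferon-inducible Schlafen protein, had 12.7, 49 and 51.9 CPM with SY200 at 3, 6 and 12 h, against 7.54 and 6.54 CPM in DMSO and parental. SELPLG, the P-selectin ligand, had 3.63, 26.2 and 20.04 CPM with SY200, against 2.56 and 1.003 CPM in the controls. KITLG, the ligand of the KIT receptor, had 25.1, 73.1 and 85.8 CPM with SY200, against 23 and 12.3 CPM in the controls. For each, 6 and 12 h were far above the controls and 3 h was closer to them. Their log2 fold changes were 2.84, 3.69 and 2.17.

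TUFT1, a vesicle-associated protein, had 105, 258 and 247 CPM with SY200, against 68.4 and 48.3 CPM in the controls, and TIGAR, a p53-inducible phosphatase, had 7.02, 24.9 and 19.4 CPM with SY200, against 6.28 and 4.75 CPM in the controls. RASD1, a small GTPase, APOLD1 and PAQR8 also rose, by log2 fold changes of 2.55, 2.40 and 2.17. Their controls were apart, with parental minus DMSO at -1.06, 0.86 and 1.27 on the log2 scale. On the low side, NOG, a secreted BMP antagonist, had 35.8, 13.8 and 15.2 CPM with SY200 at 3, 6 and 12 h, against 44.6 and 131 CPM in DMSO and parental. DKK1, a secreted WNT antagonist, had 107, 148 and 159.6 CPM with SY200, against 293 and 754 CPM in the controls. INHBB, an activin subunit, had 66.5, 21.4 and 20.7 CPM with SY200, against 46 and 112 CPM in the controls. For all 3 the controls were far apart, with parental above DMSO. DKK1 was lowest at 3 h, NOG was below both controls at 3 h by less than 2-fold, and INHBB was within them. The other genes of this choice that fell are CAVIN2 (a caveolar coat protein), CCDC9B, PLPP3 (a lipid phosphatase), CDCA7 and SNHG3, with log2 fold changes of -1.94, -1.91, -1.89, -1.79 and -1.68, beside KRTAP2-3, SOX9, ANKRD1 and SPRY1, which are described above. For CAVIN2, PLPP3 and CDCA7 parental was also above DMSO, by 1.19, 0.76 and 0.59 on the log2 scale. CAVIN2 and CDCA7 were within their controls at 3 h.

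Gene lists by pathway are given by how many measured members passed at 6 and 12 h, beside the shares of all genes tested that rose (2.93%) and fell (1.63%). Medians are over all measured members, as log2 differences from the mean of the controls. Scaling to mitochondrial mRNAs moved the median of all genes to -0.13, -0.35 and -0.20 at 3, 6 and 12 h, and under it 486 genes rose and 2096 fell at 6 and 12 h, beside 454 and 253. Directions below are therefore relative to all genes. Under that scaling no member rose in the replication, ERK feedback, YAP, anti-apoptotic or collagen lists, nor among the markers of either line, so the rises given for them below were lost. The heat shock and triple-negative lists had 1 and 2 risers under it, beside 2 and 3.

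In the transcription machinery, the P-TEFb and elongation list had 4 risers and 2 fallers of 30. The risers were the cyclin T genes CCNT1 and CCNT2, the super elongation complex scaffold AFF4 and its member ELL. CCNT2 had 34.2, 74.3 and 64.4 CPM with SY200 at 3, 6 and 12 h, against 29.2 and 24.632 CPM in DMSO and parental. AFF4 had 239, 413 and 415 CPM with SY200, against 226 and 174 CPM in the controls. Both were near the controls at 3 h and above them at 6 and 12 h. ELL was past 2-fold low at 3 h before it rose (24.7, 90.8 and 108 CPM with SY200, against 53.9 and 50.7 CPM in the controls). PAF1, of the PAF elongation complex, and LARP7, which holds P-TEFb inactive in the 7SK particle, fell by 0.61 and 1.16 on the log2 scale. Of 12 subunits of RNA polymerase II, POLR2A rose and the other 11 did not pass. POLR2H had 73.2, 61.2 and 58.6 CPM with SY200, against 90.5 and 82 CPM in the controls. POLR2C had 91.4, 107 and 107 CPM with SY200, against 81.8 and 79.5 CPM in the controls. POLR2H was below and POLR2C above both controls at each time. Of 9 genes of the CDK-activating kinase and TFIIH, GTF2H2, a core TFIIH subunit with a near-identical copy in the genome, fell (7.21, 3.57 and 3.02 CPM with SY200, against 8.02 and 8.15 CPM in the controls). GTF2H1 had 53.9, 70.8 and 76.7 CPM with SY200, against 53.6 and 59.5 CPM in the controls and did not pass.

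Some splicing factors fell at 6 and 12 h. Of 30 SR protein, CLK kinase and hnRNP genes, 0 rose and 4 fell (SRSF1, SRSF3, SRSF7 and HNRNPDL), with medians of 0.04, -0.16 and -0.27, the first of which was -0.09 under mitochondrial scaling. SRSF3 had 347, 191 and 174.71 CPM with SY200 at 3, 6 and 12 h, against 361 and 431 CPM in DMSO and parental. It was near its controls at 3 h and below them afterwards. RBM39 had 215, 212 and 227 CPM with SY200, against 271 and 283 CPM in the controls. PRPF38B had 54.9, 61.5 and 72.9 CPM with SY200, against 80.8 and 97.6 CPM in the controls. Both were below the controls at each time, and neither passed.

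The snoRNA host genes, whose introns carry the small RNAs that guide ribosomal RNA modification, had 9 fallers of 28 and no riser. In 13 of the 28 all SY200 libraries were below both controls, against 12.3% of genes with at least 10 CPM. Their medians were -0.23, -0.35 and -0.62, with the parental median 0.24 above DMSO. GAS5, a host RNA that does not code for protein, had 57.9, 44 and 41.9 CPM with SY200 at 3, 6 and 12 h, against 100.3 and 109 CPM in DMSO and parental. RABGGTB, a prenyltransferase subunit and host, had 54.9, 37.5 and 34.4 CPM with SY200, against 114 and 100.4 CPM in the controls. SNHG1 had 59, 41 and 29.5 CPM with SY200, against 66.3 and 83.6 CPM in the controls. GAS5 and RABGGTB were low from 3 h, while SNHG1 was less than 2-fold below its controls at 3 h, and all 3 fell. The other fallers were EIF4A2, SNHG3, SNHG4, SNHG7, SNHG12 and TAF1D. DESeq2 over all 5 libraries called 7 of the 28, all lower.

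Of the cell cycle lists, G2 and mitosis had 10 fallers of 32 and no riser. In 19 of the 32 all SY200 libraries were below both controls, against 12.3% of genes with at least 10 CPM. The medians were -0.20, -0.30 and -0.38. AURKA had 198, 192 and 206 CPM with SY200 at 3, 6 and 12 h, against 291 and 320.1 CPM in DMSO and parental. CCNB1, whose promoter is printed above, had 308, 293 and 287 CPM with SY200, against 419 and 448 CPM in the controls. AURKA and CCNB1 were low at 3 h already and fell at 6 and 12 h (edgeR, log2 fold change -0.62 ± 0.13 (SE), adjusted p = 0.044 for AURKA; edgeR, log2 fold change -0.58 ± 0.12 (SE), adjusted p = 0.045 for CCNB1). TTK, the spindle checkpoint kinase, had 62.9, 52 and 54.1 CPM with SY200, against 91.3 and 88.6 CPM in the controls. The kinase AURKB had 131, 72.1 and 67 CPM with SY200, against 167 and 178 CPM in the controls, and separase (ESPL1) had 73.6, 30.1 and 23.4 CPM with SY200, against 72.5 and 77.7 CPM in the controls. AURKB was modestly below its controls and ESPL1 within them at 3 h, and both were far below at 6 and 12 h. CCNB2, CENPE, KIF20A, PLK1 and UBE2C fell as well, while CDK1, TPX2 and BIRC5 did not pass. The number of cells in each phase was not measured.

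The promoters of this list are described by the letters they share. Its members were listed by pathway, so the shares of CCAAT and TTTGAA describe the list and not a response to SY200. Of 26 members with a RefSeq promoter, 21 (80.8%) held CCAAT on either strand, against 37.8% of the 7625 promoters of genes with at least 10 CPM and 35.7% of all 27305. TTTGAA was in 16 (61.5%), against 9.56% and 15.4%, and both motifs were in 14 (53.8%), against 4.33% and 6.08%. Of those 14 members, 3 fell at 6 and 12 h, and of the other 12 with a promoter, 4 did. A match is a description of letters and not of binding. For the 84 of 99 genes high at 12 h with a promoter, TATAAA was in 18 (21.4%), against 4.94% of the promoters of genes with at least 10 CPM and 12% of all, and 3 of the 18 are histone genes. For the 66 of 82 genes low at 12 h it was in 8 (12.1%).

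Histone genes of the replication-dependent class, whose mRNAs normally lack a poly(A) tail and so enter these libraries only in part, had 4 risers of 19 and no faller. Their medians were -0.15, 0.72 and 1.31. The parental median was 0.63 below DMSO. H2BC12 had 212, 324 and 374 CPM with SY200 at 3, 6 and 12 h, against 228 and 170.2 CPM in DMSO and parental. H2BC5 had 26.2, 61 and 78.4 CPM with SY200, against 39.1 and 25.5 CPM in the controls. H3C2 had 1.08, 3.003 and 2.43 CPM with SY200, against 0.694 and 0.698 CPM in the controls, and H2BC17 had 2.07, 5.04 and 5.16 CPM with SY200, against 2.3 and 1.7 CPM in the controls. At 6 and 12 h these 4 were above both controls. At 3 h only H3C2 of the 4 was above both, and H2BC17 did not pass.

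DNA replication and E2F genes had 2 risers, CCNE1 and ORC6, and 1 faller, RRM2, of 38, whereas under mitochondrial scaling 0 rose and 9 fell. Their medians were 0.36, 0.02 and -0.20, and at 6 h -0.35 under mitochondrial scaling, and parental was 0.60 above DMSO. RRM2, a ribonucleotide reductase subunit, had 509.8, 353 and 349 CPM with SY200 at 3, 6 and 12 h, against 739 and 551 CPM in DMSO and parental. The licensing factor CDT1 had 32.2, 28.4 and 30.7 CPM with SY200, against 32.9 and 64 CPM in the controls. CDT1 was below both controls at each time and did not pass. Of 32 homologous recombination and Fanconi genes, 0 rose and 0 fell, whereas 7 fell under mitochondrial scaling and 3 with DESeq2. RBBP8, a DNA end resection factor, had 121, 137 and 136 CPM with SY200, against 86.7 and 103 CPM in the controls. RAD51D had 12.9, 8.44 and 8.42 CPM with SY200, against 14 and 17.4 CPM in the controls. NBN, of the MRN complex, had 100.4, 71.3 and 76.3 CPM with SY200, against 113 and 111 CPM in the controls. RBBP8 was above and the other two below both controls at each time, and none passed.

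Some feedback genes were low at 3 h. Of 20 genes of ERK and cytokine feedback, 5 were past 2-fold low at 3 h (DUSP2, DUSP4, DUSP5, DUSP6 and SPRY1), which is 25%, against 3.44% of all 15745 genes tested. The list had medians of -0.71, 0.17 and 0.14, the last 2 of which were -0.20 and -0.07 under mitochondrial scaling. DUSP6, an ERK phosphatase, had 177, 319.9 and 278 CPM with SY200 at 3, 6 and 12 h, against 409.9 and 449 CPM in DMSO and parental. ETV5 and SPRY4 rose and SPRY1 fell at 6 and 12 h, and under mitochondrial scaling 0 of the list rose and 5 fell. SOCS2 had 16.3, 8.9 and 11.1 CPM with SY200, against 17.4 and 50.7 CPM in the controls. SOCS3 had 28.3, 29 and 32.3 CPM with SY200, against 41 and 49 CPM in the controls. Both cytokine feedback genes were below their controls, and neither passed. Of 27 immediate-early and SRF genes, JUNB and BTG1 rose and JUN and KLF2 fell, with medians of -0.08, 0.38 and 0.33 and the parental median 0.31 below DMSO. JUN had 70.8, 104 and 102 CPM with SY200, against 163 and 219 CPM in the controls. KLF2 had 9.995, 9.46 and 10.4 CPM with SY200, against 18.4 and 21.8 CPM in the controls. JUN and JUNB, both AP-1 subunits, thus lay on opposite sides of their controls.

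Of 27 YAP and TEAD targets, ANKRD1 and F3 fell and LATS2 rose, with medians of -0.05, -0.04 and -0.03. F3, the tissue factor that starts coagulation, had 272, 179 and 158 CPM with SY200 at 3, 6 and 12 h, against 305 and 597 CPM in DMSO and parental. PTPN14, a phosphatase that inhibits YAP, had 379, 387 and 387 CPM with SY200, against 284 and 256 CPM in the controls and did not pass. Of 24 WNT and BMP response genes, BAMBI, ID2 and ID4 rose and DKK1, NOG and SOX9 fell. Both DKK1 and NOG are secreted antagonists, and ID2, ID4 and BAMBI are genes that BMP signalling is known to induce. A link between these changes was not tested. The list's medians were -0.15, -0.44 and -0.04. Of 29 regulators of triple-negative breast cancer, KLF5, NOTCH3 and SNAI1 rose and EGFR, HMGA2 and SOX9 fell. SNAI1, an inducer of the mesenchymal state, had 7.64, 4.31 and 5.06 CPM with SY200, against 1.47 and 0.61 CPM in the controls. HMGA2, a chromatin protein, had 63.4, 68.9 and 62.6 CPM with SY200, against 103 and 103 CPM in the controls. SNAI1 was above and HMGA2 below both controls at each time.

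Of 31 interferon-stimulated genes, SLFN5 rose and IFIT3 and IFIT5 fell, with medians of 0.06, -0.43 and -0.47, the first being -0.06 under mitochondrial scaling. IFIT3 had 74.8, 49.7 and 51.7 CPM with SY200 at 3, 6 and 12 h, against 85.7 and 125 CPM in DMSO and parental, and IFIT5 had 24.8, 33.8 and 42.5 CPM with SY200, against 62 and 68.4 CPM in the controls. Both were below the controls at each time, IFIT5 most at 3 h and IFIT3 most at 6 h. Of 22 NF-kB and inflammatory genes, LIF, a cytokine of the IL6 family, fell (35.6, 29.6 and 21.1 CPM with SY200, against 74.6 and 68.7 CPM in the controls). CXCL8, a neutrophil chemokine, had 5.66, 4.59 and 4.67 CPM with SY200, against 6.76 and 12.2 CPM in the controls. The cytokine IL6 had 1.13, 1.13 and 0.778 CPM with SY200, against 1.52 and 2.27 CPM in the controls. Both were low in all 5 libraries, and neither passed.

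Of 26 p53 targets, TNFRSF10D and TIGAR rose and none fell. MDA-MD-231 is known for mutant p53. SESN2, a stress-induced inhibitor of mTORC1, had 29.7, 35.8 and 35.5 CPM with SY200 at 3, 6 and 12 h, against 22.2 and 11.5 CPM in DMSO and parental, above both at each time, and did not pass. Of 20 pro-apoptotic genes, BCL2L11, which encodes BIM, rose (36.7, 46.2 and 45.1 CPM with SY200, against 22 and 12.3 CPM in the controls). DIABLO, an antagonist of IAP proteins, had 4.67, 7.31 and 4.82 CPM with SY200, against 3.25 and 2.44 CPM in the controls. TNFRSF10B, a TRAIL receptor, had 167, 217 and 223 CPM with SY200, against 165 and 138 CPM in the controls. Both were above their controls at each time, and neither passed. Of 9 anti-apoptotic genes, XIAP, a caspase inhibitor, rose (62.6, 95.3 and 98.7 CPM with SY200, against 63.3 and 55.5 CPM in the controls) and BCL2L2 fell. CFLAR had 22.1, 21.4 and 20.6 CPM with SY200, against 28 and 29.7 CPM in the controls. BIRC3 had 17, 25.8 and 18.1 CPM with SY200, against 30.9 and 26.8 CPM in the controls. Both were below their controls at each time, and neither passed. BBC3 and BMF, also pro-apoptotic and both under 10 CPM, were past 2-fold low at 3 h.

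Among stress lists, 2 of 25 integrated stress and unfolded protein response genes rose (HERPUD1 and DNAJB9) and DDIT3 fell. DDIT3, which encodes CHOP, had 3.82, 4.48 and 5.16 CPM with SY200 at 3, 6 and 12 h, against 13.1 and 12.1 CPM in DMSO and parental. ATF3, another stress-induced factor, had 22.1, 29.5 and 29.97 CPM with SY200, against 13.5 and 4.05 CPM in the controls. ATF3 was above and DDIT3 below the controls at each time, and ATF3 did not pass. Of 22 heat shock chaperones, HSPA1B and DNAJB1 rose and CHORDC1 fell (52.3, 42.7 and 40.6 CPM with SY200, against 73.1 and 76 CPM in the controls). The constitutive chaperone HSPA8 had 2084, 1810.3 and 1892 CPM with SY200, against 2523 and 3598 CPM in the controls. HSPA4 had 421, 509.6 and 505 CPM with SY200, against 355 and 379 CPM in the controls. HSPA8 was below and HSPA4 above both controls at each time, and neither passed. Of 25 hypoxia and glycolysis genes, EGLN3 rose and HK2 and VEGFA fell. VEGFA, an angiogenic factor, had 109, 103 and 103 CPM with SY200, against 149 and 180.1 CPM in the controls. EGLN3, an oxygen-sensing hydroxylase, had 0.943, 3.4 and 3.94 CPM with SY200, against 0.52 and 0.48 CPM in the controls. GPI, a glycolytic isomerase, had 463, 429 and 425 CPM with SY200, against 324 and 354 CPM in the controls. GPI was above both controls at each time and did not pass.

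Of 24 cholesterol synthesis genes, none rose and 1 fell. SQLE had 17.8, 16.3 and 18.1 CPM with SY200 at 3, 6 and 12 h, against 27.7 and 23.3 CPM in DMSO and parental. MVK had 36, 29 and 35.1 CPM with SY200, against 43.6 and 44.6 CPM in the controls. Both, enzymes of the pathway, were below the controls at each time, and neither passed. Of 28 collagen, laminin and integrin genes, COL4A1 rose (67.8, 91.7 and 91.2 CPM with SY200, against 51.8 and 48.9 CPM in the controls). Their medians were 0.43, 0.11 and 0.01, the last 2 being -0.26 and -0.20 under mitochondrial scaling, and in 9 of them all SY200 libraries were above both controls, against 11.9% of genes with at least 10 CPM. ITGB1, an integrin subunit, had 1171, 1308 and 1186 CPM with SY200, against 918 and 917 CPM in the controls. FN1, fibronectin, had 302, 269.7 and 228 CPM with SY200, against 176 and 183 CPM in the controls. Both were above the controls at each time without passing. Of 14 clock genes none passed. ARNTL, a core activator, had 6.36, 7.03 and 8.47 CPM with SY200, against 13.7 and 10.2 CPM in the controls. The repressor NR1D1 had 6.84, 7.99 and 9.29 CPM with SY200, against 9.36 and 12.2 CPM in the controls, and NR1D2 had 82.9, 88.6 and 93.1 CPM with SY200, against 52.1 and 76 CPM in the controls. ARNTL and NR1D1 were below and NR1D2 above both controls at each time.

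None of 78 cytosolic ribosomal protein genes and none of 13 mitochondrially encoded mRNAs passed. The ribosomal protein medians were 0.22, 0.04 and -0.03, the 6 h value being -0.33 under mitochondrial scaling. RPSA had 719.8, 722 and 666 CPM with SY200 at 3, 6 and 12 h, against 558 and 632 CPM in DMSO and parental. RPS3A had 249.7, 226 and 221 CPM with SY200, against 174 and 221 CPM in the controls. RPSA was above both controls at each time, and RPS3A was above them at 3 and 6 h and at the parental level at 12 h. In 11 of the 13 mitochondrial mRNAs all SY200 libraries were above both controls, against 11.9% of genes with at least 10 CPM. The 3 h side of this count leans on the scaling. Before scaling, these mRNAs took 2.42% of reads with SY200 at 3 h, against 2.51% in DMSO. MT-ND2 had 1707, 2051 and 1883 CPM with SY200, against 1545 and 1261 CPM in the controls. MT-ND3 had 644, 760.2 and 702 CPM with SY200, against 567 and 569.7 CPM in the controls. MT-ND6 had 173, 230.54 and 190.2 CPM with SY200, against 158 and 110.3 CPM in the controls. All 3 encode subunits of complex I. The markers of the lines and of immune cells had few calls: of 13 tested MDA-MD-231 markers COL4A1 rose, of 9 tested MDA-MD-468 markers CD24 rose and EGFR fell, and of 4 tested immune markers none passed.

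**Figure D4:**
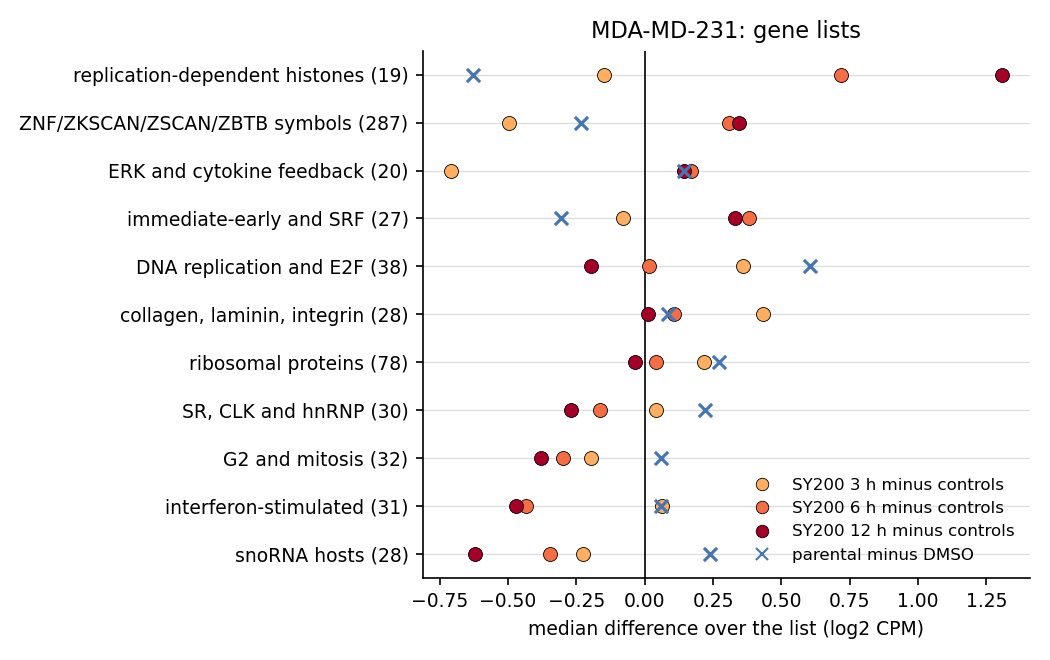
Each row is a gene list with the number of measured members in brackets. Circles are the list's median log2 difference from the mean of the controls with SY200 at 3, 6 and 12 h, and crosses are parental minus DMSO. ERK feedback and zinc finger genes are low at 3 h only, histones are high at 12 h, and snoRNA hosts and G2 and mitosis genes are low at each time. Under mitochondrial scaling the signs change for zinc finger genes, replication genes and ribosomal proteins at 6 h, for ERK feedback and collagens at 6 and 12 h, and for splicing and interferon genes at 3 h.

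Whether the effect of SY200 differed between the lines was tested as an interaction over 10 libraries. Of 18028 genes, 0 had an adjusted p under 0.05 (0%, edgeR), and 804 had an unadjusted p under 0.05; DESeq2 called 8. The 2 smallest p in each direction are named, and none passed. TOB1 had 99.4, 113 and 127 CPM with SY200 at 3, 6 and 12 h in MDA-MD-231, against 28.1 and 25.4 CPM in its DMSO and parental. In MDA-MD-468 it had 70.3, 92.8 and 70.4 CPM, against 64.8 and 65.8 CPM, on the scale of these 10 libraries. The difference of the effects was 1.83 ± 0.26 (log2, SE, adjusted p = 0.33). RP5-1085F17.3 and CTSW, on the other side, and DCAF13P3 are the other 3.

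For other genes named here the lines are given side by side in MDA-MD-468, on the same scale. ANKRD1 had 4.19, 4.32 and 6.78 CPM with SY200, against 12.5 and 12.6 CPM in DMSO and parental, low in both lines but at a much lower level. POLR2A had 535, 558 and 562 CPM, against 293 and 267 CPM. AURKA had 73.8, 87.7 and 85.4 CPM, against 139 and 135 CPM. For these 3 genes the SY200 libraries were on the same side of the controls in both lines. ID4 had 37.5, 87.1 and 56.4 CPM, against 59.3 and 114 CPM, so it overlapped its controls there.

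SY200 was set against V50, the second agent, at the same times in the same line and with no control library. The labels do not give the doses in a unit, so equal dose is not known. Of 15155 genes 1 was called (0.0066%, edgeR) and 2062 had an unadjusted p under 0.05. That gene, RP11-309L24.6, had 0.177, 0.159 and 0.0457 CPM with SY200 at 3, 6 and 12 h, against 10.2, 9.71 and 8.35 CPM with V50 (adjusted p = 0.027). With 1 library left out its call held without V50 at 12 h and was lost in the other 5 fits, with edgeR adjusted p of 0.065 to 0.64. In MDA-MD-231 libraries with an empty vector it had 0.111 CPM at 72 h and 4.81 CPM at 96 h, so it also differed with no agent. The other genes below did not pass.

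ID4 had 20.5, 22.2 and 19.9 CPM with SY200 at 3, 6 and 12 h, against 1.21, 1.23 and 2.33 CPM with V50. NEDD9, a scaffold of focal adhesion signalling, had 24.5, 26.1 and 26.5 CPM with SY200 at 3, 6 and 12 h, against 3.91, 5.31 and 4.88 CPM with V50. On the scale of the 10 libraries of both lines, NEDD9 with SY200 had 28.6, 28.0 and 28.3 CPM in MDA-MD-231. Its DMSO and parental libraries had 18.3 and 20.9 CPM on that scale, so it was less far from the controls than from V50. TOB1 had 85.2, 105 and 119 CPM with SY200 at 3, 6 and 12 h, against 4.61, 3.27 and 13.2 CPM with V50. For these, each SY200 library was above each V50 library, with log2 fold changes of 3.71 ± 0.34, 2.45 ± 0.23 and 3.87 ± 0.55 (SE) and adjusted p of 0.064, 0.064 and 0.16. POLR2A had 729.5, 1460.0 and 1467 CPM with SY200 at 3, 6 and 12 h, against 304, 262 and 188 CPM with V50. TENT5C had 98.5, 198 and 190.0 CPM with SY200 at 3, 6 and 12 h, against 14.2, 22.2 and 32.4 CPM with V50. RHOB had 31.3, 36 and 44.3 CPM with SY200 at 3, 6 and 12 h, against 3.4, 5.8 and 11.5 CPM with V50. Each SY200 library was again above each V50 library. On the low side, RPPH1, the RNA of ribonuclease P, had 0.883, 0.902 and 0.914 CPM with SY200 at 3, 6 and 12 h, against 5.44, 11.3 and 14.5 CPM with V50. TOB1, POLR2A, TENT5C and RHOB were chosen after their values were seen.

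**Figure D5:**
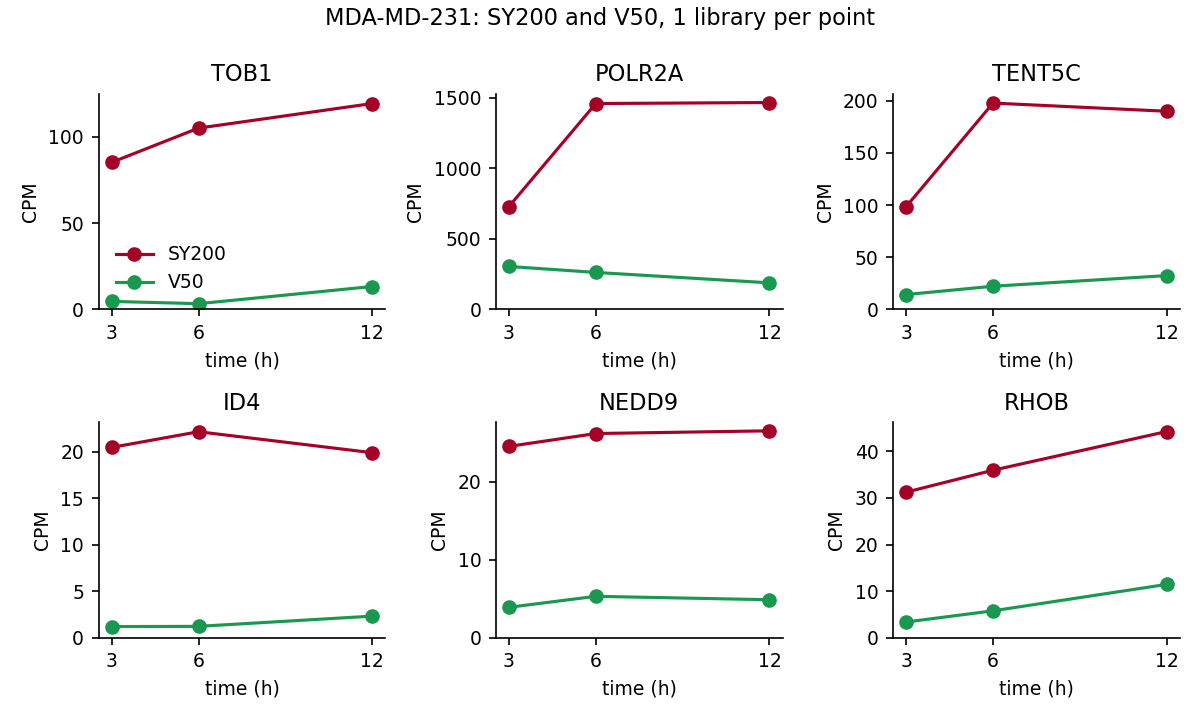
CPM at 3, 6 and 12 h for 6 genes in MDA-MD-231, 1 library per point, with SY200 in dark red and V50 in green, on axes from 0. SY200 lies above V50 at every time in each panel, as for TOB1 with 85.2 to 119 CPM with SY200, against 3.27 to 13.2 CPM with V50. The genes were chosen after their values were seen.

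A straight-line change over the doublings of time from 3 to 12 h was tested among the SY200 libraries. No gene of 15745 passed (0%, edgeR), with 2748 at an unadjusted p under 0.05, while DESeq2 called 809. FZR1, an activator of the anaphase-promoting complex, had 26, 50.7 and 76.5 CPM with SY200 at 3, 6 and 12 h, against 62.8 and 61 CPM in DMSO and parental, with a slope of 0.78 ± 0.13 log2 units per doubling (adjusted p = 0.25). MAFK, a small MAF transcription factor, had 18.8, 41.3 and 58.8 CPM with SY200, against 54.8 and 44.7 CPM in the controls. Both were below the controls at 3 h and above them at 12 h. SNRPA, a U1 snRNP protein, had 96, 51.6 and 36.7 CPM with SY200, against 84.6 and 98.5 CPM in the controls, and ESPL1, given above, had a slope of -0.83. SNRPA and ESPL1 were within the control range at 3 h and below it at 12 h.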

How the data were processed

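QuantSeq 3' mRNA FWD libraries were read as whole-number counts per gene, which the authors deposited as 1 table. The submitters' processing notes name FastQC, STAR 2.7.10a and the build GRCh38. How reads were counted per gene, and whether strand or molecular identifiers were used, was not stated there, so reads of overlapping or near-identical genes cannot be told apart, and PCR copies may make reads less independent than counts assume. The numbers of agents carry no unit in the labels.

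From the deposited counts, CPM were computed on library sizes scaled by TMM, and log2 CPM with a prior count of 2. The scaling was done within the libraries of each comparison, so a gene's CPM differs slightly between comparisons. CPM of the line and immune markers in the check of libraries, and CPM given beside knockout or empty vector libraries, use unscaled totals. Within filterByExpr (minimum count 10, total 15) edgeR 4.0.16 (quasi-likelihood, limma 3.58.1, R 4.3.3) gave BH-adjusted p, called under 0.05. The fit of 5 libraries has 3 residual degrees of freedom, and that of 6 and 12 h has 2, as does the slope. DESeq2 1.42.0 was an alternative, as were other scalings, no filter, and each library left out. Scripts were tested on simulated data. Counts over all genes past 2-fold use genes averaging 10 CPM or more, while gene lists use every member tested.

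Libraries were grouped by their labels. Of 59428 entries, 698 named only by an identifier were not named in the text. Gene positions come from GENCODE release 29 and promoters from RefSeq (GRCh38.p14), with at least 80% of a set matched. The 243 genes low at 3 h fell short of that for promoters, so their motif check is void. By rule, CDK1, CDK7 and CDK9, up to 12 called genes in each direction, up to 3 members of each list with the smallest adjusted p, and up to 5 called genes, or 2 with the smallest p, in each other test are named. Since no gene was called over 5 libraries, others were named after their values were seen. The members and lists were chosen with earlier results of these data known. Some genes that these rules would name are not reported here.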

Additional observations from a re-analysis of the deposited data

Results flagged for a closer look

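In 3 genes named above, every SY200 library lay above its controls in MDA-MD-231 and below them in MDA-MD-468. Values are on the scale of the 10 libraries of both lines. Only named genes with a mean of at least 10 CPM were searched. The same count was not made over all genes, so the 3 have no background beside them. In MDA-MD-231 alone, 11.9% of genes with at least 10 CPM were above both controls in all 3 SY200 libraries. ITGB1 had 1279, 1313 and 1190 CPM with SY200 at 3, 6 and 12 h in MDA-MD-231, against 939 and 966 CPM in DMSO and parental. In MDA-MD-468 it had 239, 207 and 229 CPM with SY200, against 247 and 266 CPM. The difference of the effects was 0.59 on the log2 scale.

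PTPN14 had 414, 388 and 388 CPM with SY200 at 3, 6 and 12 h in MDA-MD-231, against 291 and 269.7 CPM in DMSO and parental. In MDA-MD-468 it had 145, 110.5 and 171 CPM with SY200, against 205 and 197 CPM. Its difference was 1.003. XIAP had 68.3, 95.7 and 99.1 CPM with SY200 in MDA-MD-231, against 64.8 and 58.5 CPM, and in MDA-MD-468 61.1, 62.0 and 67.1 CPM with SY200, against 82.8 and 77.9 CPM. Its difference was 0.85. On the scale of the 5 MDA-MD-231 libraries, XIAP at 3 h was within its controls.

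The adjusted p of each difference was near 1 (edgeR), so none of the 3 passed the test of a difference between lines.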

How the results depend on the processing

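Over all 5 libraries the test called 0 genes, and also 0 with DESeq2's size factors or with DMSO or parental alone as the control. It called 9 with no filter, 113 with DESeq2, 7 with mitochondrial scaling (median of all genes moved by -0.23), 1 in a fit of all 11 inhibitor libraries of the line and 4 over all 22. With 1 library left out it called 0 to 707, the highest without the 3 h library. The sign of CDK9 turned then (0.0063), uncalled in both. The fit of 6 and 12 h called 1328 with DESeq2 and 2582 with mitochondrial scaling, and 86 to 5051 with 1 library left out (86 without 12 h, 223 without 6 h, 3317 without parental, 5051 without DMSO, each lone library assumed to vary like the other group).

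The slope called 809 with DESeq2 and 581 with mitochondrial scaling. The line difference called 25 with no filter and 8 with DESeq2, and 0 to 1 with a library left out (1 without SY200 at 12 h in MDA-MD-231, and 1 without DMSO in MDA-MD-468). SY200 against V50 called 64 with no filter, 256 with DESeq2, 61 with mitochondrial scaling, and 0 to 23 with a library left out (23 without V50 at 12 h, 0 without SY200 at 6 or 12 h or V50 at 6 h). With a replicate block for equal times it called 61, but the times did not pair the libraries: deviations of equal times correlated at 0.504, -0.409 and 0.664 at 3, 6 and 12 h.

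Genes past 2-fold under mitochondrial scaling were 32 higher and 318 lower at 6 h, and 57 and 155 at 12 h. Against DMSO alone they were 152 higher and 522 lower at 3 h, and 141 and 131 lower at 6 and 12 h. Against parental alone they were 39 higher at 3 h, 328 higher and 271 lower at 6 h, and 410 and 321 at 12 h. The cause of these shifts was not tested. The fit of 6 and 12 h, its alternatives and those for past 2-fold counts were added after the data were seen. With 1 library a time, the spread between cultures at a time is unknown. Alternatives were run for 27 of the named genes over 5 libraries and 24 at 6 and 12 h. Of 351 values over 5 libraries, 289 kept their direction and side of the threshold, 61 passed it and 1 turned. At 6 and 12 h 182 of 192 kept both and 10 lost the call.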

Other observations

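Further genes that changed at 6 and 12 h are given here with their levels, chosen after the values were seen. HSPA1B, an inducible HSP70 with a near-identical neighbour, had 83.5, 209.6 and 254 CPM with SY200 at 3, 6 and 12 h, against 101 and 83.2 CPM in DMSO and parental, and rose (edgeR, log2 fold change 1.33 ± 0.16 (SE), adjusted p = 0.013). Its 3 h level was at the lower control. SPRY4, an ERK feedback inhibitor, had 114, 309 and 248 CPM with SY200, against 175.03 and 149 CPM in the controls. CCNE1, the G1/S cyclin, had 6.08, 25.2 and 25.1 CPM with SY200, against 13.7 and 12.9 CPM in the controls. Both were below the controls at 3 h and above them at 6 and 12 h, and both rose (edgeR, log2 fold change 0.78 ± 0.16 (SE), adjusted p = 0.041 for SPRY4, edgeR, log2 fold change 0.92 ± 0.19 (SE), adjusted p = 0.044 for CCNE1). EGFR, a growth factor receptor, had 546, 279 and 279 CPM with SY200 at 3, 6 and 12 h, against 568 and 454 CPM in DMSO and parental. CENPE, a mitotic motor, had 94.1, 61 and 58 CPM with SY200, against 145 and 119 CPM in the controls. SRSF1, a splicing factor, had 83.4, 50.2 and 36.8 CPM with SY200, against 86.2 and 101 CPM in the controls. All 3 fell, by 0.87, 1.15 and 1.11 on the log2 scale, and of these only CENPE was below both controls at 3 h by more than a few CPM.

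NOTCH3, a NOTCH receptor, had 0.99, 10.5 and 4.91 CPM with SY200 at 3, 6 and 12 h, against 1.26 and 0.436 CPM in DMSO and parental. ID2, an inhibitor of helix-loop-helix factors, had 5.85, 6.46 and 6.03 CPM with SY200, against 2.17 and 0.741 CPM in the controls. Both rose (edgeR, log2 fold change 3.18 ± 0.55 (SE), adjusted p = 0.029 for NOTCH3, edgeR, log2 fold change 2.10 ± 0.46 (SE), adjusted p = 0.047 for ID2) at levels under 11 CPM, where few reads stand behind each value.

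A few features varied between near 0 and several CPM among single libraries of MDA-MD-231, with CPM here on unscaled library totals. RP11-309L24.6 had 0.183, 0.167 and 0.0488 CPM with SY200 at 3, 6 and 12 h, against 13.7 and 8.27 CPM in DMSO and parental. With SY200/V50 together it had 0.371, 9.69 and 9.81 CPM at the same times. With the CDK9 knockout it had 0.165 CPM at 72 h and no count at 96 h, against 0.111 and 4.81 CPM with the empty vector. DCAF13P3, FSCN1P1 and AP2B1P1, which carry the symbols of pseudogenes, varied in the same manner. AP2B1P1 had 26.3, 24.5 and 3.86 CPM with SY200, against 2.71 and 2.93 CPM in DMSO and parental, and 19.8 and 8.86 CPM with the empty vector at 72 and 96 h.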
